A study of Mus musculus with 8 samples.

Results

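The genes of the mitochondrial respiratory chain and ATP synthase were followed through sorted mouse lung epithelium. Members were taken by symbol: names starting with mt-, Nduf, Uqcr, Atp5 or Cox4 to Cox8, and the succinate dehydrogenase genes Sdha to Sdhd, without -ps names. Of the 43432 genes in the table, 134 fitted by symbol, and 101 of these had at least 1 CPM (counts over the library total, rescaled to a common library size) in 2 or more of the 8 libraries. The 101 members comprised 14 genes of mitochondrial DNA (7 mRNAs, 2 rRNAs and 5 tRNAs) and 87 nuclear genes. The nuclear genes were 7 core subunits, 30 accessory subunits and 8 assembly factors of complex I, 4 genes of complex II, 8 of complex III, 15 of complex IV and 15 of complex V. All 101 were among the 14906 genes that passed the low-count filter and were tested. The 33 genes left out were 6 mRNAs and 17 tRNAs of mitochondrial DNA and 10 nuclear genes. Just inside the limit were mt-Ti, whose second-highest library had 1.92 CPM, and mt-Tm with 2.46 CPM. Just outside were Atp5g2 with 0.825 CPM and Atp5l with 0.662 CPM on the same measure.

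RNA came from EpCAM+CD45- lung cells of C57BL/6J mice aged 14 weeks. The C/C group (n = 2) and the C/+ group (n = 3) were ChiaRed+ cells of homozygous and heterozygous ChiaRed mice, and the WT group (n = 3) was the EpCAM+CD45- gate of wild-type mice. ChiaRed reports Chia1, the gene of acidic mammalian chitinase. Both ChiaRed groups therefore differ from WT in sorting as well as in genotype, and these cannot be told apart. The labels name no separate animals, so p-values measure the spread between these libraries, which may be partly technical.

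Libraries held 17057216 to 52319957 counts. Chia1 stood at 0.365 to 1.45 CPM in C/C, 223 to 341 CPM in C/+ and 268 to 454 CPM in WT. Summed alveolar type 2 markers (6 genes) reached 229000 to 231000 CPM in C/C, 194000 to 202000 CPM in C/+ and 161000 to 187000 CPM in WT, a sum carried by Sftpc. No gene of this list was called by edgeR, its median log2 fold change was -0.02 in C/+ against WT and 0.19 in C/C against WT, and Abca3 had -0.28 and -0.33. Of the 6, 3 were above 0 in C/+ and 5 in C/C against WT. In edgeR 1 and 3 had an unadjusted p under 0.05 in these comparisons, and DESeq2 called 1 and 3. Of all 14906 tested genes, 3000 and 3299 had an unadjusted p under 0.05 in edgeR in C/+ and C/C against WT. The epithelial markers Epcam and Cdh1 together summed to 852 to 922 CPM in C/C, 769 to 899 CPM in C/+ and 947 to 988 CPM in WT. The labelled epithelial type was thus present in every library. The C/+ libraries also held more RNA of other cell types. Endothelial markers (4 genes) summed to 27.5 to 29.1 CPM in C/C, 276 to 475 CPM in C/+ and 32.2 to 130 CPM in WT, and club cell markers (4 genes) to 464 to 689, 5060 to 9390 and 428 to 1070 CPM in the same order of groups. All 4 endothelial and all 4 club markers were called higher in C/+ than in WT, as were 2 of 3 mesothelial and 3 of 4 mesenchymal markers. Of all 14906 tested genes, 3.92% were called in either direction in this comparison. In C/C against C/+, 4 of 4 endothelial, 4 of 4 club, 3 of 3 mesothelial and 3 of 4 mesenchymal markers were called lower, beside 7.08% of tested genes. The leukocyte markers, a cell type the gate removes, summed to 6.55 to 12.8 CPM over all libraries. Mesothelial markers (3 genes) summed to 4.35 to 5.78 CPM in C/C, 45.7 to 138 CPM in C/+ and 5.79 to 21.8 CPM in WT, and mesenchymal markers (4 genes) to 7.48 to 8.11, 39.4 to 124 and 6.53 to 23.8 CPM. Ciliated markers (4 genes) summed to 130 to 152 CPM in C/C, 96.0 to 228 CPM in C/+ and 117 to 188 CPM in WT, a sum carried by Tppp3, and Foxj1 and Ccdc39 were called lower in C/C than in WT (median of the list -1.87). Alveolar type 1 markers (4 genes) summed to 2010 to 2330 CPM in C/C, 1670 to 2550 CPM in C/+ and 1860 to 2550 CPM in WT. Erythroid markers (3 genes) summed to 2.89 to 5.39 CPM in C/C, 0.118 to 6.59 CPM in C/+ and 0 to 0.336 CPM in WT, without a call. The part of these cell types in the members' differences was not tested. No marker of these lists was at 0 in all libraries. By Xist and Y-linked counts, both C/C libraries, C/+ 2, C/+ 3 and WT 1 were female, and C/+ 1, WT 2 and WT 3 were male. In these bulk samples, fewer cells of a type and less RNA per cell cannot be told apart.

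Complexes I to IV pass electrons from NADH and succinate to oxygen and pump protons across the inner mitochondrial membrane, except complex II, which passes electrons without pumping. Complex V, the ATP synthase, uses the proton gradient to make ATP. Mitochondrial DNA encodes a small set of core subunits together with the rRNAs and tRNAs of mitochondrial ribosomes, transcribed as long RNAs from which tRNAs are cut, while all other subunits are nuclear genes whose proteins are imported. Alveolar type 2 cells, which make and secrete surfactant, are rich in mitochondria.

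The mitochondrial mRNAs took a larger share of the RNA in both ChiaRed groups than in WT. They held 4.65% and 6.42% of all counts in C/C, 4.05%, 3.77% and 6.23% in C/+, and 3.21%, 2.78% and 2.74% in WT. Every C/C and C/+ library lay above every WT library, while C/C and C/+ overlapped. The 87 nuclear members together held 0.692% and 0.636% in C/C, 0.747%, 0.728% and 0.602% in C/+, and 0.524%, 0.633% and 0.631% in WT. Both C/C libraries lay above every WT library, the closest being C/C 2 at 0.636% and WT 2 at 0.633%, while C/+ overlapped WT, since C/+ 3 lay below WT 2 and WT 3.

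Mitochondrial and nuclear members did not keep a fixed proportion between libraries of the same group. The ratio of mitochondrial mRNA to nuclear member counts was 6.72 and 10.1 in C/C, 5.42, 5.18 and 10.4 in C/+, and 6.12, 4.38 and 4.35 in WT. The library with the highest ratio of each group (C/C 2, C/+ 3 and WT 1) also had the lowest nuclear share, which is the divisor of the ratio. A low nuclear share raises the ratio by construction, so this match is not a separate observation. These libraries also had the highest mitochondrial mRNA share of their groups. The same 3 libraries had the lowest share of counts in protein-coding genes under 1000 bases of exon that are no members (246 genes), with 0.689% in C/C 2, 1.06% in C/+ 3 and 0.503% in WT 1. The other libraries had 0.704% in C/C 1, 1.63% and 1.26% in C/+ 1 and C/+ 2, and 0.673% and 0.606% in WT 2 and WT 3. In C/C only 2 libraries were compared. Club cell markers summed to 464 and 689 CPM in C/C 1 and C/C 2 and to 9390, 5620 and 5060 CPM in C/+ 1, C/+ 2 and C/+ 3. In WT 1, WT 2 and WT 3 they summed to 444, 1070 and 428 CPM. The part of club cell genes in the short-gene shares was not tested, nor was the part of these shares in the members' levels. Group means of the ratio were 8.40 ± 2.38 in C/C (SD, n = 2), 6.98 ± 2.92 in C/+ and 4.95 ± 1.02 in WT (SD, n = 3 each).

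**Figure D1:**
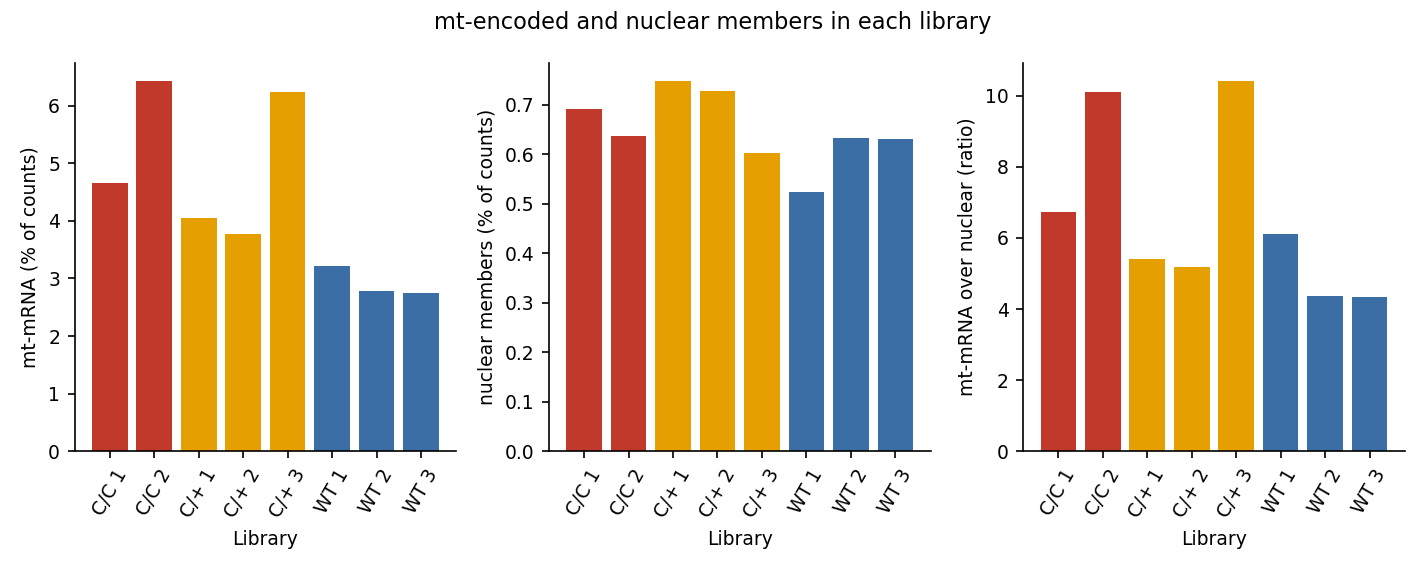
Bars give, for each library, the share of all counts held by the 7 mitochondrial mRNAs (left), by the 87 nuclear members (middle) and the ratio of the shares (right), with C/C in red, C/+ in orange and WT in blue. C/C 2, C/+ 3 and WT 1 have the highest ratio of their groups, 10.1, 10.4 and 6.12.

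Every ChiaRed library lay above every WT library in its mitochondrial mRNA share, so a split by sex could only give the same order. The part of sex in the shares was not tested. Among female libraries the share was 4.65% and 6.42% in C/C, 3.77% and 6.23% in C/+ and 3.21% in the single WT library. Among male libraries it was 4.05% in the single C/+ library and 2.78% and 2.74% in WT. The nuclear share among females was 0.692% and 0.636% in C/C, 0.728% and 0.602% in C/+ and 0.524% in WT 1, and among males 0.747% in C/+ 1 and 0.633% and 0.631% in WT.

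The counts did not cover mitochondrial DNA evenly. The 11 genes from mt-Ts1 to mt-Nd4l, which lie next to each other at positions 6870 to 10173 of mitochondrial DNA (chrM, GRCm38) and include mRNAs of complexes I, IV and V, held 20 counts in all 8 libraries, of 11613176 counts for all 37 mitochondrial genes. Of the 6 mRNAs in this stretch, mt-Co2, mt-Atp8, mt-Atp6, mt-Co3 and mt-Nd4l were listed at 0 in every library and mt-Nd3 had 3 counts. A count of 0 allows up to 3 counts, or 0.0573 to 0.176 CPM per library, for counting error only. For 5 of the 6 mRNAs, 98.0% to 100% of their 50-base words also occur in another annotated transcript, and for mt-Atp8 none do. Only annotated transcripts were searched, not the rest of the genome, so a copy of mt-Atp8 outside them would be missed. Each of these 5 mRNAs has a copy on chromosome 1 that holds 98.0% to 99.9% of its words, and the 5 copies lie next to each other (24612407 to 24615565, GRCm38) and held 0 to 5 counts each. The copy of mt-Atp6 ends at 24614651 and that of mt-Co2 starts at 24614885. The bases between them were not compared with mt-Atp8, which lies beside both genes in mitochondrial DNA. mt-Co2 also shares 35.3% of its words with Gm13341 on chromosome 2, which held 361 counts. Neither the true genes nor the copies can therefore be given a level, and how the authors treated reads that align to several places is not given in the sources used here.

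The first 120 bases of mt-Nd3, a complex I subunit, and of its chromosome 1 copy Gm28438 show how close the copies are, with the differing base in capitals, both read from GENCODE M21 transcripts:
mt-Nd3: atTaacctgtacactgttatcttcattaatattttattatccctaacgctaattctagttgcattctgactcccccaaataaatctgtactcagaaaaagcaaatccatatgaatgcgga
Gm28438: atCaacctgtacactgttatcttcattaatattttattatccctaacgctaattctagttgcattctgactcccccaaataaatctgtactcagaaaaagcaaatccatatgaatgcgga
Over the 345 bases compared, these sequences had 1 difference, T3C, counted from the first base of mt-Nd3, and were 99.7% identical. The copies of mt-Co2, mt-Co3, mt-Atp6 and mt-Nd4l were 100% identical over the compared length. Among the measured mRNAs, mt-Co1 shared 51.1% and mt-Nd4 62.2% of words with other transcripts, so their levels are uncertain in the same way, whereas mt-Nd2 shared 8.19%, mt-Nd5 7.61%, mt-Rnr2 1.04%, and mt-Nd1, mt-Cytb, mt-Nd6 and mt-Rnr1 none.

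**Figure D2:**
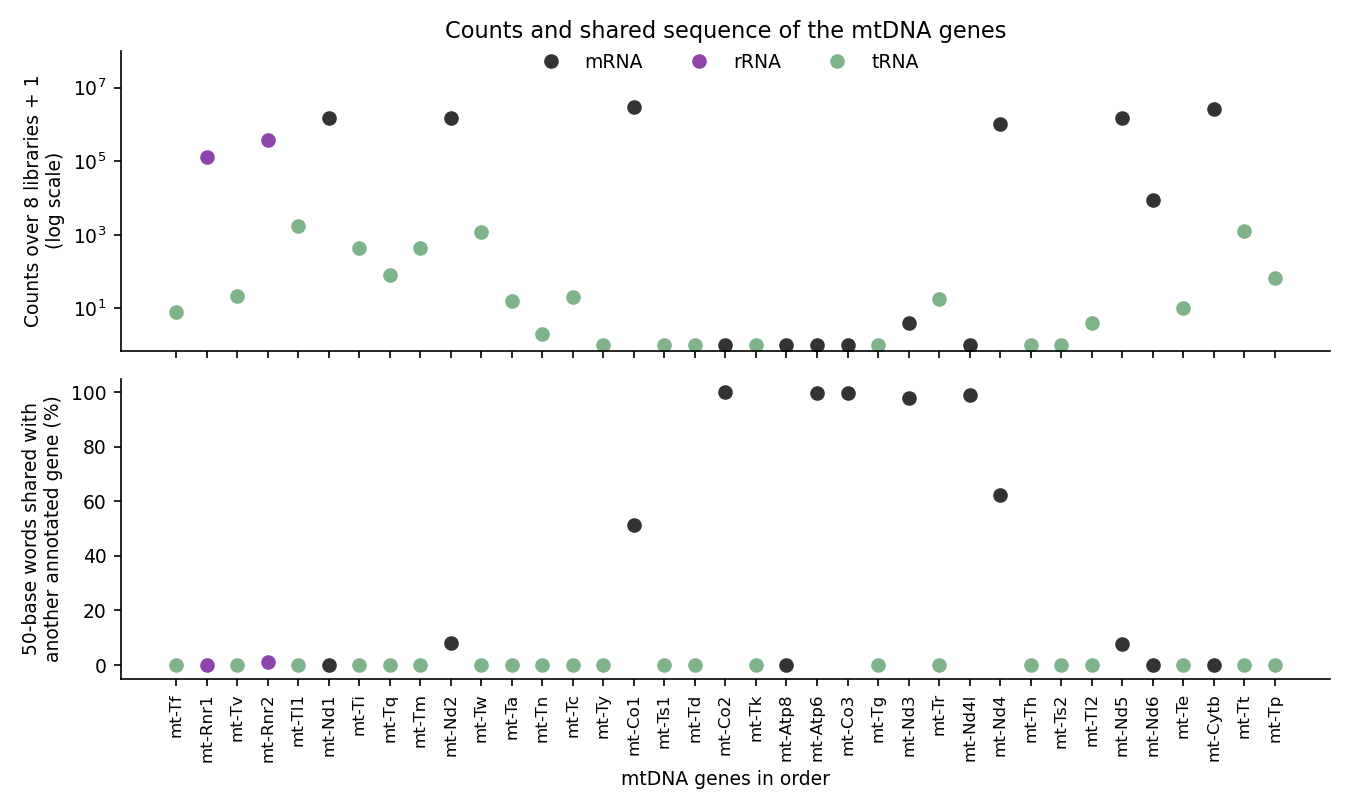
Each point is 1 of the 37 mitochondrial genes in gene order, with its counts summed over 8 libraries plus 1 on a log scale (top) and the percentage of its 50-base words found in another annotated gene (bottom); mRNAs are black, rRNAs purple and tRNAs green. The stretch from mt-Ts1 to mt-Nd4l holds 20 counts, and 5 of its 6 mRNAs share 98.0% to 100% of words.

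The mitochondrial rRNAs were highest in C/C, and mt-Rnr1 had the smallest adjusted p of all members in C/C against WT. mt-Rnr1, the RNA of the small mitochondrial ribosomal subunit (ENSMUSG00000064337, chrM 70 to 1024, plus strand), had 952 and 851 CPM in C/C, 412, 380 and 370 CPM in C/+, and 178, 317 and 294 CPM in WT. The 3 groups did not overlap. Its log2 fold change was 1.78 ± 0.20 (SE) in C/C against WT (adjusted p = 0.00253, edgeR quasi-likelihood test, Benjamini-Hochberg over 14906 genes) and 1.22 ± 0.20 in C/C against C/+ (adjusted p = 0.00551, edgeR). The C/+ to WT difference was 0.56 ± 0.18 and missed the threshold (adjusted p = 0.122, edgeR). Without any 1 library the C/C to WT difference stayed between 1.54 and 1.93 and was called each time. The C/C to C/+ difference lost its call without C/C 1 (log2 fold change 1.14, adjusted p = 0.0738, edgeR).

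mt-Rnr2, the RNA of the large mitochondrial ribosomal subunit, had 1910 and 1950 CPM in C/C, 1690, 1250 and 1290 CPM in C/+, and 786, 1020 and 1200 CPM in WT. Its groups did not overlap either. It rose in C/C against WT (log2 fold change 0.95 ± 0.18, adjusted p = 0.0325, edgeR), and the differences of 0.45 ± 0.18 in C/C against C/+ and 0.49 ± 0.17 in C/+ against WT did not pass the test. Among female libraries mt-Rnr1 had 952 and 851 CPM in C/C, 380 and 370 CPM in C/+ and 178 CPM in WT 1, and among males 412 CPM in C/+ 1 and 317 and 294 CPM in WT. The library kit selects mRNA, and the efficiency of that selection in each library was not measured.

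All mitochondrial mRNAs measured except mt-Nd6, 6 in number, stood above WT in every C/C and C/+ library. mt-Cytb, the cytochrome b of complex III (ENSMUSG00000064370, chrM 14145 to 15288), had 12000 and 16400 CPM in C/C, 9200, 8830 and 12700 CPM in C/+, and 6770, 6030 and 6110 CPM in WT. Its log2 fold change was 0.70 ± 0.16 in C/+ against WT (adjusted p = 0.0430, edgeR) and 1.17 ± 0.18 in C/C against WT (adjusted p = 0.0148, edgeR). mt-Nd1, a membrane core subunit of complex I (chrM 2751 to 3707), had 6050 and 8820 CPM in C/C, 5850, 5680 and 8790 CPM in C/+, and 3840, 3640 and 3660 CPM in WT. It rose by 0.87 ± 0.19 on the log2 scale in C/+ against WT (adjusted p = 0.0328, edgeR) and by 1.0 ± 0.20 in C/C against WT (adjusted p = 0.0370, edgeR).

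mt-Co1, the catalytic subunit of complex IV, had 13800 and 19000 CPM in C/C, 11300, 10400 and 17300 CPM in C/+, and 8490, 7260 and 7170 CPM in WT. It rose in C/C against WT (log2 fold change 1.10 ± 0.22, adjusted p = 0.0334, edgeR), as did the complex I subunit mt-Nd4 (1.08 ± 0.21, adjusted p = 0.0340, edgeR). The complex I subunits mt-Nd2 (1.06 ± 0.26, adjusted p = 0.0583) and mt-Nd5 (1.18 ± 0.29, adjusted p = 0.0560) had differences of similar size in C/C against WT that missed the edgeR threshold. Between C/C and C/+ neither edgeR nor DESeq2 called any of these mRNAs. Of them, mt-Cytb alone had an unadjusted p under 0.05 in edgeR there, with a log2 fold change of 0.47 ± 0.18 (adjusted p = 0.166, edgeR). Per kilobase of transcript, the level in C/C was highest for mt-Cytb (12400 CPM per kb) and mt-Co1 (10600 CPM per kb), and was 944 CPM per kb for mt-Rnr1.

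In C/+ against WT, 2 of the 14 mitochondrial members were called by edgeR, both higher, where 3.92% of all 14906 tested genes were called in either direction. Of the 14, 10 had every C/+ library above every WT library, against 14.1% of tested genes. Mitochondrial genes are transcribed together as long RNAs, so the 14 are not independent of each other, here and in the counts below. Against WT, 6 of 14 were called in C/C, all higher, against 2.98% of tested genes, and 9 of 14 had every C/C library above every WT library, against 20.8%. Between C/C and C/+, 1 of 14 was called, mt-Rnr1, against 7.08% of tested genes, and 2 of 14, both rRNAs, had every C/C library above every C/+ library, against 18.1%.

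The comparisons with WT share the same WT libraries and are therefore not independent of each other. Calls over all tested genes also moved when 1 library was left out. Without WT 2 they fell from 585 to 127 in C/+ against WT and from 444 to 39 in C/C against WT. Other such fits are given with the nuclear members below. How many of all tested genes had an unadjusted p under 0.05 in such fits is not given here. The count of 2 in C/+ against WT was 1 without C/C 1 or C/+ 3, and 0 without C/+ 1, C/+ 2, WT 1, WT 2 or WT 3, fits in which 8 to 10 of the 14 had an unadjusted p under 0.05. The count of 6 in C/C against WT was 2 without C/C 1, 1 without C/C 2, 4 without C/+ 2, 8 without C/+ 3, 5 without WT 1, 1 without WT 2 and 3 without WT 3. Gene by gene in C/C against WT, mt-Cytb was called in 6 of the 8 fits without 1 library, mt-Co1, mt-Nd4 and mt-Rnr2 in 4 and mt-Nd1 in 2. The C/+ to WT call held for mt-Nd1 in 3 and for mt-Cytb in 1 of these fits. With sex as a covariate the count was 5 in C/+ against WT and 6 in C/C against WT. Calls over all tested genes then rose to 1700 and 1348 in these comparisons, so the backgrounds given above do not apply.

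**Figure D3:**
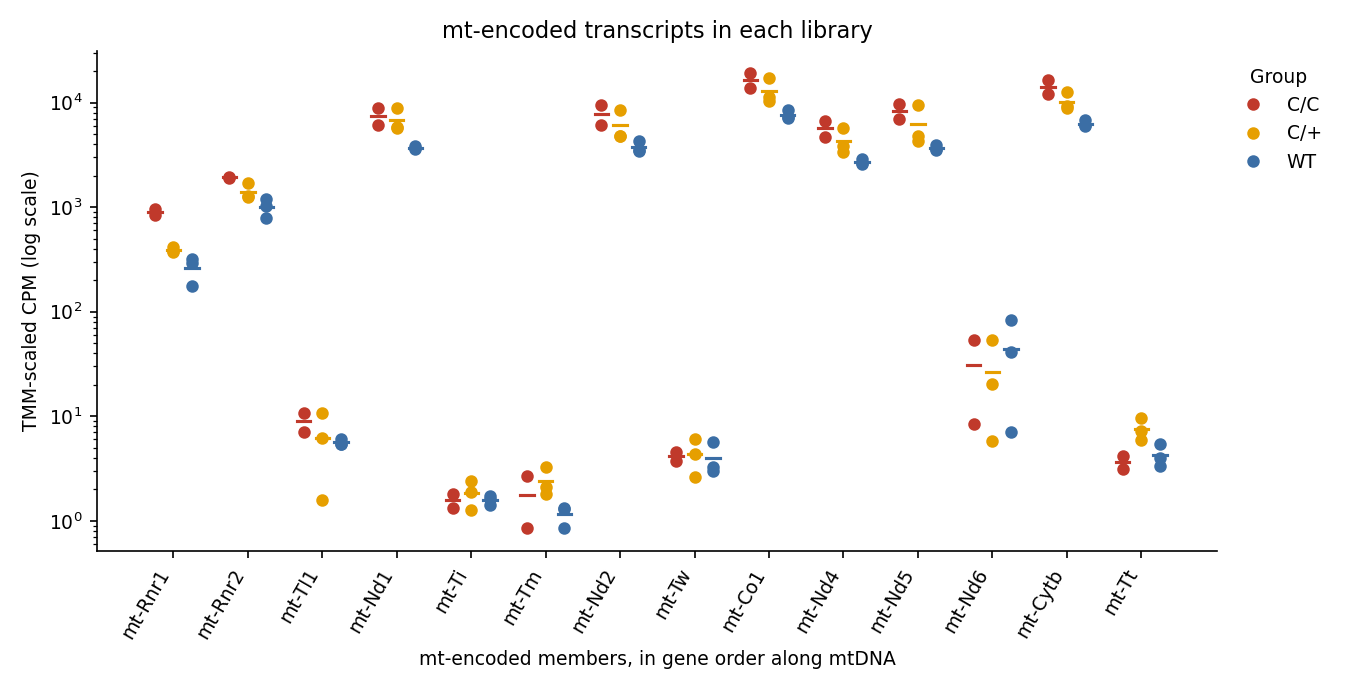
Points give the TMM-scaled CPM of each library on a log scale for the 14 mitochondrial members in gene order, with C/C in red, C/+ in orange and WT in blue, and bars mark group means. mt-Rnr1 stands at 851 to 952 CPM in C/C, above 370 to 412 CPM in C/+ and 178 to 317 CPM in WT, while mt-Nd6 spreads from 5.76 to 83.0 CPM within and across groups.

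mt-Nd6, a complex I subunit and the only mRNA encoded on the opposite strand (chrM 13552 to 14070, minus strand), did not follow the other mRNAs. It had 53.1 and 8.37 CPM in C/C, 53.7, 20.4 and 5.76 CPM in C/+, and 7.11, 83.0 and 41.0 CPM in WT. The lowest library of each group was again C/C 2, C/+ 3 or WT 1, those with the highest ratio of mitochondrial to nuclear counts. Its log2 fold change was -0.49 ± 1.0 in C/C against WT (adjusted p = 0.823, edgeR) and -0.68 ± 0.90 in C/+ against WT (adjusted p = 0.714, edgeR). Its last 14 bases overlap mt-Nd5 on the other strand, and the strand setting of the counting is not given in the sources used here.

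The 5 tRNA members were counted at low levels, 1.16 to 8.96 CPM in group means. mt-Tt, the threonine tRNA directly downstream of mt-Cytb (chrM 15289 to 15355), is shown because it ran against mt-Cytb between the ChiaRed groups (GENCODE M21, GRCm38):
mt-Tt: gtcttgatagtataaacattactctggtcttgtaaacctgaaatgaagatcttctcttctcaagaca
It had 3.12 and 4.20 CPM in C/C, 7.28, 5.92 and 9.70 CPM in C/+, and 5.43, 3.37 and 3.96 CPM in WT. Every C/C library lay below every C/+ library, while C/C and WT overlapped. The log2 fold change in C/C against C/+ was -1.06 ± 0.29 and missed the edgeR threshold (adjusted p = 0.058), and DESeq2 called it lower (adjusted p = 0.00879). Over the alternatives the adjusted p ran from 0.00879 to 0.397, the highest without C/C 1. mt-Tl1, the leucine tRNA between mt-Rnr2 and mt-Nd1, had 7.07 and 10.8 CPM in C/C, 6.14, 1.59 and 10.7 CPM in C/+, and 6.13, 5.41 and 5.43 CPM in WT. mt-Ti, mt-Tm and mt-Tw stood between 0.849 and 6.10 CPM, and none of the 5 was called by edgeR in any comparison. All 5 lie directly beside or overlap another mitochondrial gene.

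The nuclear members were mostly higher in both ChiaRed groups than in WT, with smaller medians than the mitochondrial mRNAs, and none passed the test between C/C and C/+. In C/+ against WT, 5 of 87 were called by edgeR, all higher (background 3.92%), the median log2 fold change was 0.33, and 83 of 87 were above 0, beside a median of 0.00 over all tested genes. Of the 87, 10 were called in C/C against WT, all higher (background 2.98%), with a median of 0.35 and 83 of 87 above 0, beside -0.03 over all tested genes. Between the ChiaRed groups, edgeR and DESeq2 each called 0 of 87 (edgeR background 7.08%), the median was 0.06 and 54 of 87 were above 0. In edgeR 3 of the 87 had an unadjusted p under 0.05 there, beside 3116 of the 14906 tested genes. For the 7 mitochondrial mRNAs the medians were 0.70, 0.37 and 1.08 in C/+ against WT, C/C against C/+ and C/C against WT.

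Every C/+ library lay above every WT library for 32 of 87 nuclear members (background 14.1%). Every C/+ library lay below for 1, Sdha, beside 1599 of the 14906 tested genes. Every C/C library lay above every WT library for 59 of 87 (background 20.8%), and above every C/+ library for 19 of 87 (background 18.1%). Both C/C libraries lay below WT for 2 of 87, Sdha and Atp5g1, beside 3362 of the 14906 tested genes. They lay below C/+ for 3 of 87, beside 3018 tested genes. The 37 nuclear members that share no 50-base word with another gene had medians of 0.38, 0.08 and 0.35 in the 3 comparisons, in the order given above for the medians. The 43 shorter nuclear members had a median of 0.38 in C/+ against WT and in C/C against WT, and the 44 longer ones 0.25 and 0.32.

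Single libraries decided these counts, and calls over all tested genes also moved. In C/+ against WT those went from 585 to 103, 199 and 725 without C/+ 1, C/+ 2 and C/+ 3. Without WT 1, WT 2 and WT 3 they were 566, 127 and 168. In C/C against WT they went from 444 to 479, 179, 781, 404, 39 and 280 in the same order of libraries. Fits without C/C 1 or C/C 2 leave 1 C/C library. Of the 10 nuclear members called in C/C against WT, Ndufb3 was called in 5 of the 8 fits without 1 library and the others in 1 or 2. Of the 5 called in C/+ against WT, Cox7b was called in 3, Cox6a2 in 2 and the others in 1. In C/+ against WT the count of 5 was 1 without C/C 1, C/C 2, WT 1 or WT 3, 0 without C/+ 1, C/+ 2 or WT 2, and 13 without C/+ 3. In C/C against WT the count of 10 was 0 without C/C 1, C/C 2 or WT 2, 5 without C/+ 1, 1 without C/+ 2 or WT 1, 17 without C/+ 3 and 3 without WT 3. In the fits with a count of 0, 23 to 38 of the 87 had an unadjusted p under 0.05. How many of all tested genes were at that level in these fits is not given here. With sex as a covariate 36 and 32 of the 87 were called in C/+ and C/C against WT. Calls over all tested genes then rose from 585 to 1700 and from 444 to 1348, so the backgrounds given above do not apply. Leaving out WT 1, C/+ 3 and C/C 2 together, an alternative chosen after the data were seen, leaves 1 C/C library. The median of the nuclear members was then 0.31 in C/+ against WT and 0.31 in C/C against WT. The median over the nuclear members ran from 0.22 to 0.43 in C/+ against WT and from 0.22 to 0.56 in C/C against WT over all settings tried. Markers of endothelial and club cells were higher in C/+ than in WT, while in C/C endothelial markers summed to 27.5 to 29.1 CPM, against 32.2 to 130 CPM in WT.

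**Figure D4:**
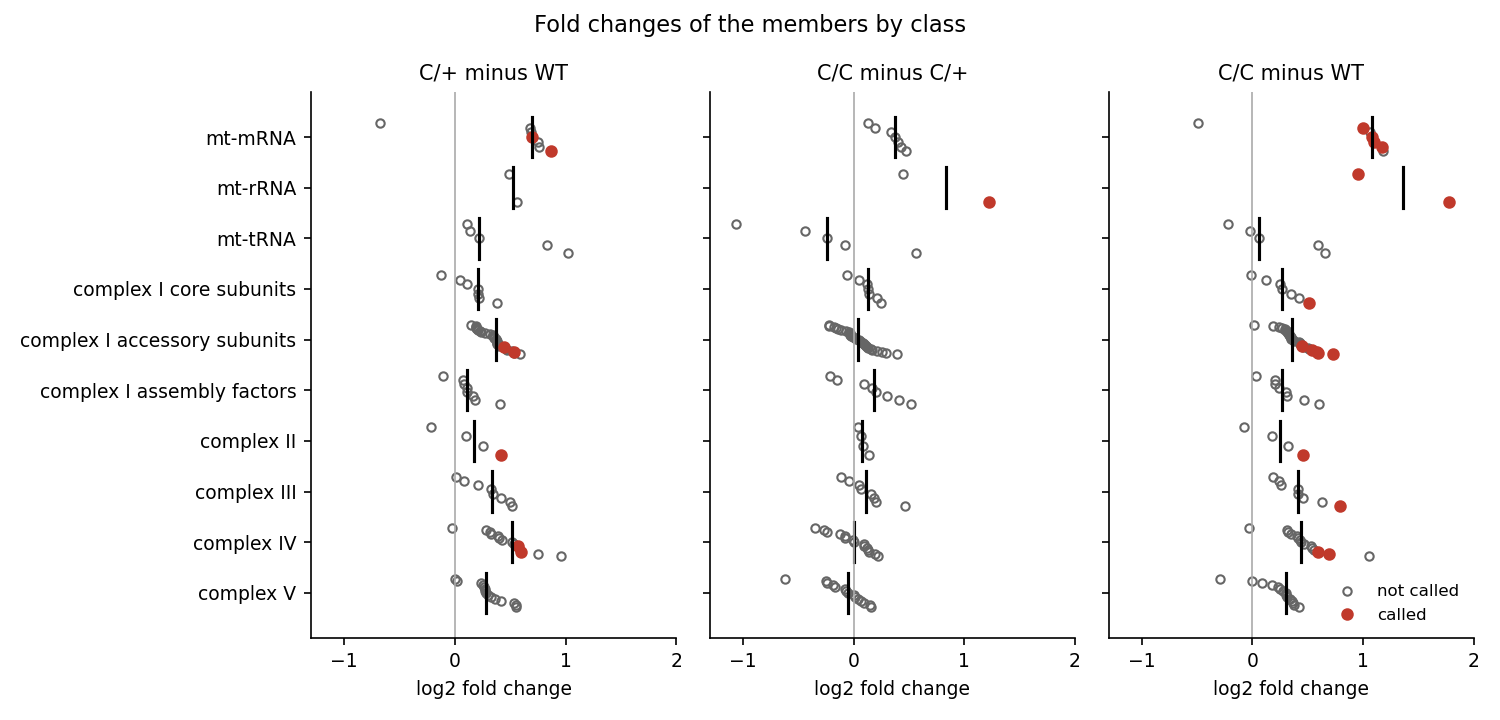
Points give the log2 fold change of each of the 101 members by class in C/+ minus WT, C/C minus C/+ and C/C minus WT; filled red points passed the edgeR test at an adjusted p under 0.05, open points did not, and vertical bars are class medians. Mitochondrial mRNAs have medians of 0.70, 0.37 and 1.08, while the complexes of nuclear genes have medians of 0.11 to 0.52 in C/+ minus WT.

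Complex I oxidises NADH. Its 7 core subunits, which carry the flavin and iron-sulfur clusters, had a median log2 fold change of 0.21 in C/+ against WT and 0.27 in C/C against WT. Of the 7, 0 were called in C/+ against WT (background 3.92%) and 1, Ndufv2, in C/C against WT (background 2.98%). Ndufv2 had 78.0 and 83.0 CPM in C/C, 74.8, 67.4 and 79.3 CPM in C/+, and 56.4, 53.7 and 59.8 CPM in WT, with no overlap between WT and the others. It rose by 0.51 ± 0.10 in C/C against WT (adjusted p = 0.0370, edgeR). The core subunit Ndufv1, chosen here after its values were seen, had log2 fold changes of -0.13 in C/+ against WT and 0.12 in C/C against WT.

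All 30 accessory subunit genes of complex I, which build the shell around the core, had log2 fold changes above 0 in both comparisons with WT, with medians of 0.37 in C/+ and 0.36 in C/C. Log2 fold changes ran from 0.15 to 0.59 in C/+ and from 0.01 to 0.73 in C/C. Ndufb3 had 58.7 and 63.1 CPM in C/C, 49.5, 55.6 and 44.2 CPM in C/+, and 35.2, 35.8 and 38.9 CPM in WT. Its groups did not overlap, and it rose by 0.44 ± 0.11 in C/+ against WT (adjusted p = 0.0460, edgeR) and 0.73 ± 0.12 in C/C against WT (adjusted p = 0.0160, edgeR). Ndufb7 had 74.8 and 71.4 CPM in C/C, 75.7, 70.2 and 65.4 CPM in C/+, and 39.6, 53.8 and 52.7 CPM in WT. It rose by 0.53 ± 0.12 in C/+ (adjusted p = 0.0419, edgeR) and 0.59 ± 0.14 in C/C (adjusted p = 0.0488, edgeR), and C/C and C/+ overlapped.

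Ndufa6, Ndufc2 and Ndufb10 passed the test in C/C against WT, with log2 fold changes of 0.45, 0.54 and 0.58. Ndufc2, a membrane arm subunit, had 136 and 131 CPM in C/C, 124, 117 and 117 CPM in C/+, and 77.0, 101 and 97.6 CPM in WT, with WT 1 the lowest library. Ndufa4, named as a complex I subunit and since recognised as part of complex IV, was the most abundant gene of this class with 155 and 149 CPM in C/C, 165, 156 and 131 CPM in C/+, and 86.8, 116 and 127 CPM in WT. It was not called (adjusted p = 0.125 in C/C and 0.112 in C/+ against WT, edgeR). The 30 had a median of 0.04 in C/C against C/+, where edgeR called 0 (background 7.08%). In that comparison 1 of them had an unadjusted p under 0.05, beside 3116 of the 14906 tested genes.

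The 8 assembly factors of complex I, which help to build the complex and leave it, had medians of 0.11 in C/+ against WT and 0.27 in C/C against WT. EdgeR called 0 of the 8 in both comparisons, near the backgrounds of 3.92% and 2.98%. At an unadjusted p under 0.05 were 0 and 1 genes, beside 3000 and 3299 of the 14906 tested genes. Ndufaf3, the most abundant of them, had 26.7 and 28.3 CPM in C/C, 22.7, 28.6 and 20.1 CPM in C/+, and 20.9, 21.7 and 23.8 CPM in WT. Its C/+ libraries enclosed those of WT.

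Complex II is encoded by nuclear genes alone and also works in the TCA cycle. Sdhb, the iron-sulfur subunit, had 64.7 and 67.6 CPM in C/C, 67.5, 62.8 and 62.6 CPM in C/+, and 44.4, 46.2 and 53.1 CPM in WT. WT lay below all others, and Sdhb rose by 0.42 ± 0.10 in C/+ against WT (adjusted p = 0.0385, edgeR) and 0.46 ± 0.11 in C/C against WT (adjusted p = 0.0471, edgeR). Sdha, the flavoprotein subunit that binds Sdhb, had 195 and 193 CPM in C/C, 168, 187 and 173 CPM in C/+, and 200, 203 and 210 CPM in WT. Its C/+ and C/C libraries all lay below WT, but the log2 fold changes of -0.22 ± 0.09 in C/+ (adjusted p = 0.190, edgeR) and -0.08 ± 0.10 in C/C (adjusted p = 0.694, edgeR) were not called. The difference between both subunits was not tested. The membrane anchors Sdhc and Sdhd, described after their values were seen, had 0.25 and 0.10 in C/+ against WT.

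Complex III passes electrons from ubiquinol to cytochrome c. Its 8 nuclear members were all above 0 in both comparisons with WT, with medians of 0.34 in C/+ and 0.41 in C/C. Of the 8, 0 were called in C/+ against WT (background 3.92%) and 1 in C/C against WT (background 2.98%). Uqcr11, a small subunit, had 65.3 and 81.5 CPM in C/C, 59.7, 56.8 and 43.3 CPM in C/+, and 37.7, 44.6 and 45.0 CPM in WT. It rose by 0.79 ± 0.15 in C/C against WT (adjusted p = 0.0334, edgeR), and in C/+ against WT the groups overlapped (0.33 ± 0.14, adjusted p = 0.222, edgeR). Uqcrh, the hinge subunit and the most abundant of the class, had 148 and 137 CPM in C/C, 170, 151 and 119 CPM in C/+, and 83.7, 113 and 115 CPM in WT, and was not called.

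Complex IV reduces oxygen to water and has subunits with alternative isoforms. Its 15 members had the highest class median of the nuclear genes, 0.52 in C/+ against WT, and 0.44 in C/C against WT. Cox7b, a small membrane subunit, had 102 and 93.5 CPM in C/C, 106, 104 and 84.7 CPM in C/+, and 55.4, 66.1 and 72.8 CPM in WT. All WT libraries lay lower than the others, and it rose by 0.60 ± 0.12 in C/+ (adjusted p = 0.0293, edgeR) and 0.59 ± 0.14 in C/C (adjusted p = 0.0483, edgeR).

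Both isoforms of subunit 6A were expressed. Cox6a2, known as the heart and skeletal muscle isoform, had 83.9 and 104 CPM in C/C, 74.8, 94.1 and 90.2 CPM in C/+, and 53.1, 63.6 and 57.9 CPM in WT. It rose by 0.57 ± 0.12 in C/+ against WT (adjusted p = 0.0332, edgeR) and 0.69 ± 0.14 in C/C against WT (adjusted p = 0.0334, edgeR). Cox6a1, the form found in most tissues, had 111 and 107 CPM in C/C, 107, 90.8 and 83.0 CPM in C/+, and 65.3, 80.1 and 79.9 CPM in WT, and missed the threshold in C/C against WT (0.54 ± 0.13, adjusted p = 0.0521, edgeR). Per kilobase the levels were close, 138 CPM per kb for Cox6a2 and 156 CPM per kb for Cox6a1 in C/C, and 85.5 and 107 CPM per kb in WT. Cox6a2 overlaps 70 exon bases of Itgad on the opposite strand, a gene with 0 counts in all libraries.

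For the other isoform pairs the common form dominated. Cox4i1 had a group mean of 312 ± 12.1 CPM in C/C, 292 ± 19.7 in C/+ and 232 ± 27.8 in WT, and Cox4i2, the isoform known from lung and linked to oxygen sensing, 4.81 ± 0.277, 6.11 ± 0.226 and 3.63 ± 0.425 CPM (SD, n = 2, 3 and 3). Cox4i2 libraries did not overlap between the groups, with C/+ the highest, and its difference of 0.75 ± 0.18 in C/+ against WT missed the threshold (adjusted p = 0.0518, edgeR). Cox7a1, the muscle isoform, had 3.26 and 2.48 CPM in C/C, 3.33, 3.17 and 1.53 CPM in C/+, and 0.931, 1.61 and 1.64 CPM in WT, and Cox7a2 had 107 and 89.4, 123, 117 and 78.5, and 50.9, 81.6 and 88.7 CPM in the same order. Neither was called, nor were Cox7a2l, which works in supercomplex assembly, Cox6b1, the testis isoform Cox6b2, or Cox8a. Cox8b, a muscle isoform, was listed at 0 in every library. Cox5a, a subunit that binds on the matrix side, had 56.3 and 50.6 CPM in C/C, 57.5, 43.3 and 39.4 CPM in C/+, and 29.5, 43.9 and 42.7 CPM in WT, and was not called (0.47 ± 0.19 in C/C against WT, adjusted p = 0.188, edgeR).

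Complex V, whose 15 members hold the catalytic head, the stalks and the membrane ring, gave no call in edgeR in any comparison. An unadjusted p under 0.05 was found for 5, 0 and 4 members in C/+ against WT, C/C against C/+ and C/C against WT. Of all 14906 tested genes, 3000, 3116 and 3299 were at that level. With 3.92%, 7.08% and 2.98% of all tested genes called, 0 of 15 is near the background. Its medians were 0.28, -0.05 and 0.30. Atp5a1, the alpha subunit of the head and the most abundant nuclear member, had 569 and 542 CPM in C/C, 512, 564 and 489 CPM in C/+, and 471, 531 and 558 CPM in WT. All groups overlapped, with log2 fold changes of 0.00 ± 0.10 in C/+ and 0.09 ± 0.12 in C/C against WT. The ring subunit c is encoded by several genes for the same mature protein: Atp5g3 had 169 and 130 CPM in C/C, 184, 159 and 105 CPM in C/+, and 83.8, 150 and 145 CPM in WT, Atp5g1 stood at 1.93 to 3.71 CPM in all libraries, and Atp5g2 was below the membership limit. Atp5g1 and Atp5g2 share 11.1% and 38.4% of their 50-base words with other annotated genes and Atp5g3 none.

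**Figure D5:**
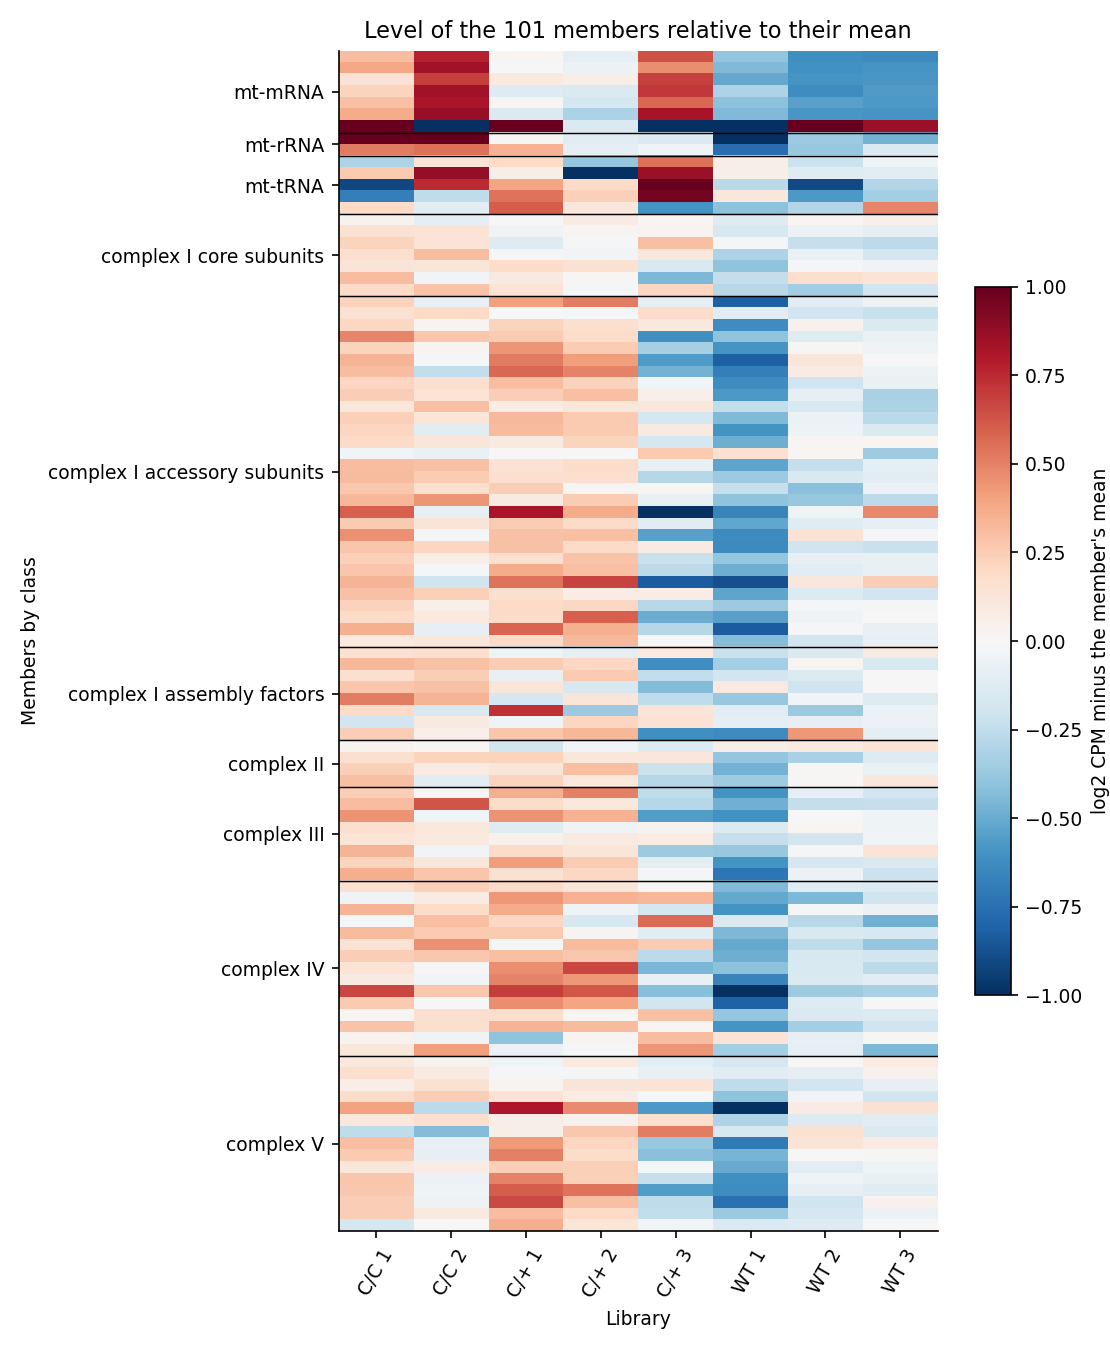
Rows are the 101 members by class and columns the 8 libraries; the colour is log2 CPM minus the member's mean over the libraries, with values beyond 1 shown at the end of the scale. By class median, WT 1 is the lowest library in every nuclear class but the assembly factors (median deviation of nuclear members -0.44). C/+ 3 stands at a median of -0.10 beside 0.22 and 0.20 in C/+ 1 and C/+ 2.

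The promoters of the nuclear members called in C/+ against WT are shown, since these genes are the nuclear calls of that comparison. They run from 250 bases before to 50 after the start (RefSeq, GRCm38.p6, plus strand), with motif matches in capitals:
Ndufb3: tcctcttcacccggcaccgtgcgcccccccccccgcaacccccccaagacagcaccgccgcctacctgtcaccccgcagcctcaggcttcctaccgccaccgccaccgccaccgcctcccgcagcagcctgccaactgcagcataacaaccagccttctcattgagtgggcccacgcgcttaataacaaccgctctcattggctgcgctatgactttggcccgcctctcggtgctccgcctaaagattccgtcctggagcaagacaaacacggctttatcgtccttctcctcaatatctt
Ndufb7: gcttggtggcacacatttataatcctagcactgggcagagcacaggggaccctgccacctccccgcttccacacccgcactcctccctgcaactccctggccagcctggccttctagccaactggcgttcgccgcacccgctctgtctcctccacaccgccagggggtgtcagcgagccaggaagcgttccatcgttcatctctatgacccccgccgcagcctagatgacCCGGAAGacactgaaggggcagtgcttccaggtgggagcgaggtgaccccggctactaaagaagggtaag
Sdhb: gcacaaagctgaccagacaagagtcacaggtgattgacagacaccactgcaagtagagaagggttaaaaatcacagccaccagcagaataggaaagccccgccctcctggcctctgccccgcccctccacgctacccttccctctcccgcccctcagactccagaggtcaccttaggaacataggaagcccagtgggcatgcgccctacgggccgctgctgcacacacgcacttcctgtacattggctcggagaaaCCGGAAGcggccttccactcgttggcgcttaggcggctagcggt
Cox7b: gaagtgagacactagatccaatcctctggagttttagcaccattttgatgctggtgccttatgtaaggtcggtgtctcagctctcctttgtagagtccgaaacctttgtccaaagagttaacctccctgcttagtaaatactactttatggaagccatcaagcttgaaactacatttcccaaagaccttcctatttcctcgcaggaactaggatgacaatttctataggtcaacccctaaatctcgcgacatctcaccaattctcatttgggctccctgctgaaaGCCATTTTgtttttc
The windows lie at chr1:58586147-58586446, chr8:83566508-83566807, chr4:140961021-140961320 and chrX:106015450-106015749. The fifth such gene is Cox6a2. Core motifs of 3 factors or families known to act on respiratory chain promoters were searched on both strands: NRF1 (CGCANGCG), ETS factors such as GABP (CCGGAAG) and YY1 (AANATGGC). Ndufb7 held an ETS match before its start, Sdhb an ETS match and Cox7b a YY1 match, on the reverse strand, after theirs, and Ndufb3 held none of the 3.

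Promoters were matched for 70 of the 87 nuclear members. The NRF1 core was in 26 of them (37.1%) and in 9.22% of all 27025 promoters of the table, the ETS core in 17 (24.3%) and 9.93%, and the YY1 core in 18 (25.7%) and 6.96%. At least 1 of the 3 was in 49 (70.0%) of the members and in 22.4% of all promoters. By complex, the NRF1 core was in 7 of 11 matched promoters of complex V, 3 of 5 of complex III, 2 of 3 of complex II, 1 of 11 of complex IV, and in 10 of 28 accessory subunits, 3 of 7 assembly factors and 0 of 5 core subunits of complex I. A match describes the letters only. All members passed the CPM limit, while the 27025 promoters were not limited to expressed genes. The shares were not compared with those of other expressed genes.

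Genes that make, process or regulate the mitochondrial transcripts are read beside the shares of all 14906 tested genes called. These were 3.92% in C/+ against WT, 7.08% in C/C against C/+ and 2.98% in C/C against WT. Counts of 0 or 1 in lists of this size are near that background. Counts at an unadjusted p under 0.05, here and for the lists below, are read beside 3000, 3116 and 3299 of the tested genes in the same order. Of 15 genes for replication and transcription of mitochondrial DNA, edgeR called 0 in each comparison, with 2, 2 and 1 at an unadjusted p under 0.05 and 1, 0 and 0 called by DESeq2 in the same order of comparisons. Polg, the mitochondrial DNA polymerase and most abundant of these, had 126 and 118 CPM in C/C, 125, 123 and 116 CPM in C/+, and 164, 145 and 143 CPM in WT. Both ChiaRed groups lay below WT, without a call (adjusted p = 0.117 in C/C and 0.088 in C/+, edgeR). Of 18 genes for processing and stability of mitochondrial RNA, 1 was called, Hsd17b10, a subunit of the RNase P that frees tRNA ends. Hsd17b10 had 136 and 145 CPM in C/C, 120, 119 and 111 CPM in C/+, and 98.1, 98.7 and 105 CPM in WT, and rose by 0.48 ± 0.09 in C/C against WT (adjusted p = 0.0328, edgeR), called in 3 of the 8 fits without 1 library.

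Among 10 regulators of mitochondrial biogenesis, 1 was called, Esrrg, an orphan nuclear receptor, lower in C/C than in C/+ (adjusted p = 0.027, edgeR) from 0.0459 and 0.0261 CPM in C/C, 1.04, 0.373 and 0.353 CPM in C/+, and 0.439, 0.332 and 0.298 CPM in WT. The C/C values rest on 2 counts and 1 count, under the floor of 3 counts per library, and the call was lost without C/C 1, C/C 2 or C/+ 1 (highest adjusted p = 0.19, edgeR). A single call in 10 genes is near the background of 7.08%. The list ran lower than WT, with 2 of 10 above 0 in C/+ (median -0.17) and 1 of 10 in C/C (median -0.28). In C/C against C/+ 4 of 10 were above 0 (median -0.09). Its genes summed to 178 to 181 CPM in C/C, 191 to 211 CPM in C/+ and 204 to 205 CPM in WT. Ppargc1a, the coactivator PGC-1 alpha, had 5.76 and 6.07 CPM in C/C, 5.32, 4.99 and 10.4 CPM in C/+, and 8.32, 8.97 and 6.84 CPM in WT, and was not called. Of 8 genes for cytochrome c, cytochrome c1 and coenzyme Q synthesis, 24 for assembly of complexes III and IV, 7 for assembly of complex I outside the symbol rule and 12 for antioxidant enzymes, uncoupling and carriers, edgeR called 0 in every comparison. These lists had 3, 5, 1 and 6 genes at an unadjusted p under 0.05 in C/C against WT in edgeR, and DESeq2 called 0, 0, 0 and 1. In C/+ against WT these numbers were 2, 3, 0 and 4 at an unadjusted p under 0.05 and 1, 0, 0 and 1 called by DESeq2, and in C/C against C/+ they were 2, 1, 1 and 2, with 0 called by DESeq2 in each list. Cyc1, the cytochrome c1 of complex III, had 104 and 93.6 CPM in C/C, 91.2, 87.0 and 65.5 CPM in C/+, and 72.6, 88.3 and 88.5 CPM in WT.

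The TCA cycle supplies NADH and succinate to the chain, and glycolysis supplies pyruvate to the cycle. Of 17 TCA cycle genes, 2 were higher in C/C than in C/+, the malate dehydrogenase Mdh2 and the fumarase Fh1, and all 17 were above 0 (median 0.12), beside a background of 7.08% called. Mdh2 had 172 and 187 CPM in C/C, 137, 134 and 145 CPM in C/+, and 130, 124 and 135 CPM in WT, with log2 fold changes of 0.37 ± 0.10 against C/+ (adjusted p = 0.0413, edgeR) and 0.47 ± 0.10 against WT (adjusted p = 0.0367, edgeR). Fh1 had 77.6 and 78.4 CPM in C/C, 51.5, 61.8 and 52.9 CPM in C/+, and 62.7, 55.4 and 55.7 CPM in WT (0.49 ± 0.11 against C/+, adjusted p = 0.0234, edgeR).

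Of 15 glycolysis genes, 3 were called higher in C/C than in C/+, beside 7.08% of all tested genes called: Hk2, Slc2a1 and Gapdh. Hk2, the hexokinase that binds the outer mitochondrial membrane, had 116 and 125 CPM in C/C, 43.4, 47.8 and 52.7 CPM in C/+, and 65.7, 48.2 and 57.2 CPM in WT. C/C lay above all others, at 1.33 ± 0.14 against C/+ (adjusted p = 0.000775, edgeR) and 1.08 ± 0.14 against WT (adjusted p = 0.00549, edgeR). The first was called in 8 of 8 fits without 1 library and the second in 7 of 8, all but the fit without C/C 2. Slc2a1, the glucose transporter GLUT1, had 22.0 and 25.1 CPM in C/C, 16.3, 17.1 and 16.6 CPM in C/+, and 21.9, 21.6 and 25.3 CPM in WT, so that C/C and WT overlapped. Of 12 import and chaperone genes, 1 was called in C/C against C/+ (background 7.08%) and 1 in C/C against WT (background 2.98%). Tomm40, the outer membrane import pore, was higher in C/C than in C/+ (0.62 ± 0.13, adjusted p = 0.0175, edgeR) and Clpp, a matrix protease, higher in C/C than in WT (0.59 ± 0.12, adjusted p = 0.0392, edgeR). Mdh2 was called in 2 of 8 fits without 1 library in C/C against WT and likewise in 2 of 8 in C/C against C/+, where Slc2a1 was called in 2, Fh1, Gapdh and Tomm40 in 5, and Clpp in 3 of 8 in C/C against WT. In C/+ against WT none of these 3 lists had a call in edgeR, with 2, 2 and 1 genes at an unadjusted p under 0.05 and 0, 1 and 0 called by DESeq2.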

How the data were processed

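RNA of EpCAM+CD45- lung cells, with ChiaRed+ sorting in C/C and C/+, was sequenced after miRNeasy extraction with DNase treatment and library preparation with a TruSeq stranded mRNA kit, per the labels' protocols. The authors deposited raw read counts per Ensembl gene for the 8 libraries. The submitters' processing notes name STAR 2.4.2a, DESeq2 and build GRCh38, whereas the table lists mouse Ensembl identifiers. How reads were counted, with which strand setting and what treatment of multiple alignments, is not given in the sources used here. Symbols were matched for 42462 of the 43432 genes. No sample column was left unused.

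Counts as deposited were tested with edgeR 4.0.16 in R 4.3.3 (quasi-likelihood, TMM, filterByExpr by group) in 1 model of all 8 libraries, two-sided, with Benjamini-Hochberg adjustment over 14906 genes and calls at an adjusted p under 0.05. The standard error is the absolute log2 fold change over the square root of F. CPM are scaled by TMM factors (0.915 to 1.06), while shares use column totals. The fit was checked on simulated counts. Depth of 17057216 to 52319957 counts gives a floor of 3 counts, 0.0573 to 0.176 CPM, for counting error only.

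Coordinates and 50-base words shared between genes come from GENCODE M21 (GRCm38), and promoters from RefSeq (GRCm38.p6). The members and lists were chosen with earlier results of these data known. Named by rule were all mitochondrial members, the most abundant and the called members of each complex, the alternative isoforms and Cox5a, and from each further list up to 3 called genes or the most abundant. 1 result under this rule is not reported here. Alternatives were other scalings, filters, samples and covariates, DESeq2 1.42.0, and each library left out.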

Additional observations from a re-analysis of the deposited data

How the results depend on the processing

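Counts of called members are given as mitochondrial, then nuclear, then all tested genes. In C/+ against WT they were 2, 5 and 585 as reported, 9, 23 and 1299 without a low-count filter, 1, 1 and 349 with the compared groups alone, 5, 36 and 1700 with sex as a covariate, and 7, 16 and 1263 with DESeq2. In C/C against C/+ they were 1, 0 and 1056 as reported, 4, 1 and 1614 without the filter, 3, 2 and 1200 with sex, and 2, 0 and 1609 with DESeq2. In C/C against WT they were 6, 10 and 444 as reported, 8, 25 and 1456 without the filter, 6, 32 and 1348 with sex, and 8, 21 and 1476 with DESeq2. The cause was not tested. Higher against lower calls over all genes were 510 and 75, 261 and 795, and 241 and 203 as reported in these 3 comparisons, and 1047 and 653, 380 and 820, and 639 and 709 with sex as a covariate. Leaving out WT 1, C/+ 3 and C/C 2 together, chosen after seeing the data, gave 6, 26 and 977, then 3, 0 and 1098, then 7, 4 and 396. Leaving out 1 library gave 0 to 2, 0 to 13 and 103 to 725 in C/+ against WT, 0 to 4, 0 and 181 to 1299 in C/C against C/+, and 1 to 8, 0 to 17 and 29 to 781 in C/C against WT. Same-numbered libraries of C/+ and WT had correlations of -0.206, -0.049 and -0.056 in their deviations from group means. For C/C and C/+ these were 0.087 and -0.044, and for C/C and WT -0.086 and -0.026. With groups of 2 or 3 libraries they cannot decide whether the numbers pair libraries, and the labels do not say so. A replicate block gave 0, 1 and 457 calls in C/+ against WT, 1, 0 and 799 in C/C against C/+, and 2, 1 and 176 in C/C against WT. Over a total without mitochondrial genes and Sftpc, mean mitochondrial mRNA shares were 7.02% in C/C and 3.45% in WT, rRNA shares 0.332% in C/C and 0.224% in C/+, tRNA shares 0.00236% in C/C and 0.00206% in WT, and nuclear shares 0.842% in C/C, 0.856% in C/+ and 0.707% in WT. Over TMM-scaled totals the C/C means were 0.283% for rRNA and 0.717% for nuclear members. Without 1 library the mean mitochondrial mRNA share ran from 4.65% to 6.42% in C/C, 3.91% to 5.14% in C/+ and 2.76% to 2.99% in WT, rRNA from 0.256% to 0.268%, 0.165% to 0.189% and 0.121% to 0.146%, tRNA from 0.00159% to 0.00213%, 0.00195% to 0.00263% and 0.00167% to 0.00186%, the nuclear share from 0.636% to 0.692%, 0.665% to 0.738% and 0.577% to 0.632%, and the ratio from 6.72 to 10.1, 5.30 to 7.89 and 4.37 to 5.25. No fold change of a called named gene reversed. The tRNAs had the lowest counts of the mitochondrial members, which limits their precision.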
